A study of Danio rerio with 10 samples.

Results

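The genes described here are 10 zebrafish (Danio rerio) genes of leukotriene and prostaglandin synthesis, out of 15335 genes in the messenger RNA tables. They were chosen by name: pla2g4aa, alox5a, alox5ap, lta4h, ltc4s, ptgs1, ptgs2a, ptgs2b, ptges and ptges3a. Of these, 9 had a row in the tables, 8 reached the minimum of 10 counts over all libraries, and 7 passed the filter on low counts and were tested. The gene ltc4s had no row, and ptges had 0 counts in every library, so neither was measured. The 10 genes, and the pathway and marker lists used below, were chosen with earlier results of these data known. Shares of calls among them are therefore a description only.

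The genes were followed in neutrophils that were sorted from embryos with an AB background, grown for 3 days after fertilization. The vector group, labelled as overexpressing the vector, was the control and held 2 libraries, replicates 1 and 3; a vector replicate 2 was not analysed here. The miR-199 group, labelled as overexpressing miR199, a microRNA, held 3 libraries. Both transgenic lines also carried a GFP reporter, cells were collected by fluorescent sorting, and the SMART-Seq v4 kit for very small RNA inputs served to build the libraries. The promoter that drove the transgenes, and whether the libraries came from separate clutches or pooled embryos, are not given in the sources used here, so p-values measure the spread between these libraries, which may be technical.

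Leukotrienes and prostaglandins are lipid mediators made from arachidonic acid. Cytosolic phospholipase A2 frees arachidonic acid from membranes. 5-lipoxygenase and its activating protein then turn it into leukotriene A4, which lta4h converts to leukotriene B4, a strong attractant of neutrophils, and ltc4s converts to leukotriene C4. Cyclooxygenases instead turn arachidonic acid into prostaglandin H2, from which terminal synthases make prostaglandin E2 and other prostanoids.

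None of the 7 tested genes passed the test between miR-199 and vector neutrophils, with the quasi-likelihood test of edgeR and p-values adjusted (Benjamini-Hochberg) over all 8897 genes tested. Among all tested genes 19.9% were called at an adjusted p under 0.05. At an unadjusted p under 0.05, 2 of the 7 passed, lta4h and ptgs1, against 36.9% of all tested genes. DESeq2 called 1 of the 7, ptgs1, against 30.1% of all genes with an adjusted p. The 3 leukotriene genes had negative fold changes and pla2g4aa and the 3 tested prostaglandin genes positive ones. The median log2 fold change over the 7 was 0.23, and over all tested genes it was 0.019. The libraries of the groups did not overlap for 4 of the 7 (alox5a, lta4h, ptgs1 and ptges3a), against 57.3% of all tested genes. With scaling by library totals alone, which moved the median of all genes up by 0.13, the fold changes of alox5a, alox5ap and lta4h were -0.13, -0.079 and -0.25. Those of pla2g4aa, ptgs1, ptgs2b and ptges3a were then larger than in the main fit, at 0.57, 0.79, 0.36 and 0.39.

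Total counts were 14816526 and 17024134 in the vector libraries and 12339928 to 14526272 in the miR-199 libraries. Levels are given as normalised CPM, that is, counts per 1000000 after TMM scaling of the library totals. With this depth a count of 0 allows up to 3 counts, or between 0.182 and 0.235 CPM, and this limit covers counting error only. All 8 neutrophil markers with a row were detected, led per kilobase by lect2l, which held 24795 and 27151 CPM in the vector libraries and 15145, 17386 and 18966 CPM in the miR-199 libraries. Their summed level was 74260 and 79599 CPM in vector against 43505 to 52219 CPM in miR-199 neutrophils, and 3 of the 8 (lyz, lect2l and mmp9) were called, all lower, against 10.4% of all tested genes called lower. The sum follows the most abundant of these genes, and 2 of the 8 had positive fold changes. These were csf3r, at 0.28, and cebpa, at 4550.1 and 4636 CPM against 7583, 10052 and 5746 CPM, with an adjusted p of 0.0793 with edgeR and 0.0158 with DESeq2. The part of this in the values of the synthesis genes was not tested, and in sorted bulk samples fewer cells of a type and less RNA per cell cannot be told apart. The deposited annotation lists 1807 genes both on a primary chromosome and on an alternate locus of the assembly. Of these, 62.1% were at 0 in all 5 libraries, against 11.7% of genes listed only on primary chromosomes, so a 0 for such a gene was not read as lack of expression.

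Arachidonic acid release was represented by pla2g4aa, a cytosolic phospholipase A2 gene with 18 exons on chromosome 2, plus strand, between 20925899 and 20957362 (build GRCz11). Its counts were 358 and 177 in vector replicates 1 and 3, and 379, 242 and 362 counts in miR-199 replicates 1, 2 and 3. In normalised CPM the vector libraries held 21.7 and 12.9, and the miR-199 libraries 24.9, 19.0 and 26.7. The groups overlapped, because vector replicate 1 lay above miR-199 replicate 2. Its log2 fold change of 0.44 (SE 0.29) had a 95% interval of -0.26 to 1.15 and an edgeR adjusted p of 0.316. The vector libraries set much of this value, since it was 0.12 without vector replicate 3 and 0.86 without vector replicate 1.

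**Figure D1:**
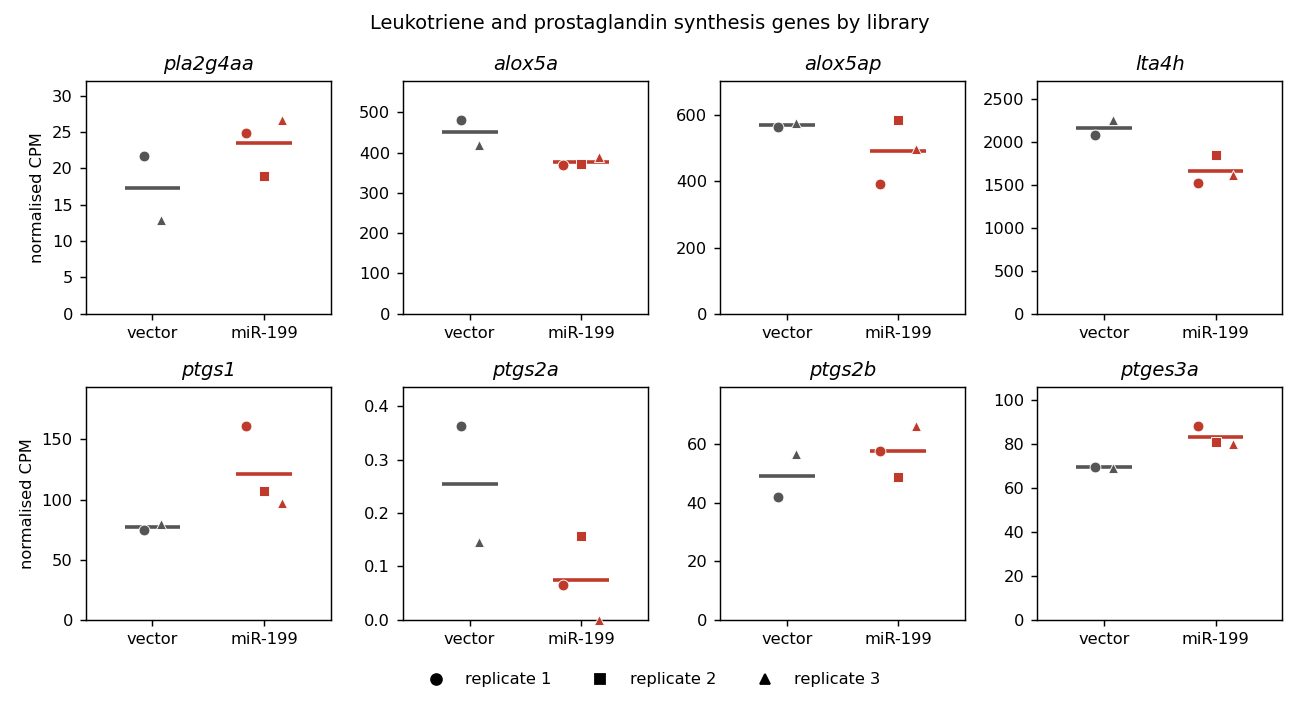
Each panel plots 1 gene, with normalised CPM on a linear axis from 0 and the vector (grey) and miR-199 (red) libraries side by side; symbols mark the replicate number and bars the group mean. The ptgs1 value of miR-199 replicate 1, at 161 CPM, lies above the other 4 libraries, and lta4h ranges from 1529.6 to 2261 CPM.

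The 3 measured leukotriene genes were the most abundant of the set. The gene alox5a encodes a 5-lipoxygenase, which carries out the first steps of leukotriene synthesis. It has 14 exons on chromosome 13, minus strand, between 18127662 and 18174864. The related gene alox5b.3 of the pathway list was far lower, at 1.57 and 1.46 CPM in vector and 4.21, 3.37 and 1.70 CPM in miR-199 libraries. Its positive log2 fold change of 1.02 had an edgeR adjusted p of 0.209. The vector libraries held 7948 and 5737 alox5a counts and the miR-199 libraries 5598, 4729 and 5292. In normalised CPM these were 481 and 419 against 368, 371 and 390. Each miR-199 value was lower than each vector value, by 29.4 CPM at the closest pair, while the vector libraries differed by 61.8 CPM. This gave a log2 fold change of -0.26 (SE 0.12; 95% interval -0.56 to 0.04) and an edgeR adjusted p of 0.186.

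The gene alox5ap encodes the 5-lipoxygenase-activating protein, a membrane protein that presents arachidonic acid to the enzyme. It lies on the plus strand of chromosome 10 at 36458576 to 36463837, with 5 exons. Its counts were 9300 and 7880 in vector and 5958, 7475 and 6765 in miR-199 libraries, or 563 and 576 CPM against 392, 586 and 499 CPM. The groups overlapped, with miR-199 replicate 2 the highest of all 5 libraries and replicate 1 the lowest. A log2 fold change of -0.21 (SE 0.19; 95% interval -0.66 to 0.24) resulted, and the edgeR adjusted p was 0.458. Without miR-199 replicate 1 the fold change was -0.052.

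The hydrolase gene lta4h, whose product makes leukotriene B4, had the highest level. Its counts were 34350 and 30930 in vector neutrophils, and 23258, 23625 and 21999 in miR-199 neutrophils. In CPM it was 2080.0 and 2261 against 1529.6, 1852.5 and 1622. The mean CPM values were 2171 ± 128 (SD, n = 2) and 1668 ± 166 (SD, n = 3), and each miR-199 value was lower than each vector value. On the log2 scale the fold change was -0.38 (SE 0.14; 95% interval -0.73 to -0.03). It had an unadjusted p of 0.0363 and did not pass after adjustment, with an edgeR adjusted p of 0.110. DESeq2 gave an adjusted p of 0.0536.

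The tables list lta4h in 2 places, with 19 exons each: on chromosome 4, minus strand, between 7653612 and 7673131, and on the alternate locus KZ115085v1 of the same chromosome at 214596 to 232971. How reads that match both copies were counted is not stated, so the counts of lta4h may hold only part of its reads. The deposited length of 4224 bases sums both copies, and 1 copy spans 2112 bases of exon.

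The final enzyme of the other branch, leukotriene C4 synthase, could not be followed. As genes of the same family of membrane glutathione transferases, mgst1.1, mgst1.2, mgst2, mgst3a and mgst3b were looked up after the gene names of the tables had been seen. In mammals MGST2 also conjugates leukotriene A4. The counts of mgst2 were 25 and 37 in vector and 1, 16 and 17 in miR-199 neutrophils, and the edgeR adjusted p was 0.376 at a log2 fold change of -1.30 (SE 0.97). The most abundant of the family, mgst3b, held 97.9 and 82.1 CPM against 93.8, 77.2 and 49.3 CPM, and its edgeR adjusted p was 0.479. Of the 3 family members tested, edgeR called 0, with 0 at an unadjusted p under 0.05, and DESeq2 called 0. Over all genes these shares were 19.9%, 36.9% and 30.1%.

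Among the cyclooxygenase genes, ptgs1 was the most abundant. It encodes cyclooxygenase 1, the form usually made without stimulation, and lies on the plus strand of chromosome 5 at 64907368 to 64946434, with 11 exons. Its counts were 1230 and 1089 in vector and 2451, 1364 and 1313 in miR-199 neutrophils. In CPM the vector libraries held 74.5 and 79.6 and the miR-199 libraries 161, 107 and 96.8. All miR-199 libraries were above both vector libraries, and replicate 1 stood well above the other 2. Its log2 fold change was 0.66 (SE 0.24; 95% interval 0.08 to 1.24), the largest among the 7 tested genes, with an unadjusted p of 0.0323 and an edgeR adjusted p of 0.102. With DESeq2 the adjusted p was 0.0492, so the call depended on the tool. Without miR-199 replicate 1 the fold change was 0.42, with an edgeR adjusted p of 0.0735.

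In many species ptgs1 is strongly expressed in platelets, whose counterparts in fish are thrombocytes. Of 6 listed thrombocyte markers 4 had a row, and of the 3 tested edgeR and DESeq2 each called 0, with 1 at an unadjusted edgeR p under 0.05. Over all genes these shares were 19.9%, 30.1% and 36.9%. The summed level of the markers was 415 and 463 CPM in vector and 449 to 743 CPM in miR-199 libraries. Nearly all of it was fli1b, which is also expressed outside thrombocytes. The defining marker itga2b had 11 and 10 counts in vector and 0 in all 3 miR-199 libraries. In contrast, mpl had 2 and 3 counts against 7, 13 and 14, and gp1bb had 3 and 3 against 1, 25 and 12. The median log2 fold change of the 3 tested markers was 2.22, that of gp1bb, whose edgeR adjusted p was 0.272. The part of thrombocytes in the ptgs1 values was not tested.

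The cyclooxygenase 2 genes ptgs2a and ptgs2b, the inducible forms, are duplicates in zebrafish and differed widely in level. The gene ptgs2b, with 10 exons on chromosome 20, minus strand, between 34121823 and 34127397, had 690 and 775 counts in vector and 875, 624 and 898 in miR-199 neutrophils. In CPM these were 41.8 and 56.7 against 57.5, 48.9 and 66.2, so the groups overlapped. At a log2 fold change of 0.23 (SE 0.21; 95% interval -0.27 to 0.72), the edgeR adjusted p was 0.467. It moved from 0.017 without vector replicate 1 to 0.47 without vector replicate 3.

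By contrast, ptgs2a had only 6 and 2 counts in vector neutrophils, and 1, 2 and 0 counts in miR-199 neutrophils, 11 in all. It did not pass the filter on low counts, and a difference between the groups was not detectable at this depth. Its 9 exons are on chromosome 2, minus strand, between 20916497 and 20923864, beside pla2g4aa on the opposite strand, with 2034 bases between the listed ends of the genes. In each library pla2g4aa held more counts than ptgs2a, and per kilobase at least 4.99 CPM against at most 0.17 CPM. Whether any reads match both ptgs2a and ptgs2b was not checked, and how the authors would have counted such reads is not stated.

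The terminal prostaglandin E synthase genes could be followed in part. The inducible membrane enzyme gene ptges was at 0 in all 5 libraries. It is listed in 2 places, on chromosome 5 at 33339762 to 33347984 and on the alternate locus KZ115125v1 at 47488 to 55710, and belongs to the genes whose 0 was not read as lack of expression. The gene ptges3a encodes a cytosolic prostaglandin E synthase that is also known as p23, a co-chaperone of Hsp90. Its counts were 1146 and 945 in vector, and 1338, 1027 and 1084 in miR-199 neutrophils. In CPM it was 69.4 and 69.1 in vector and 88.0, 80.5 and 79.9 in miR-199 neutrophils, with every miR-199 library above both vector libraries. At a log2 fold change of 0.26 (SE 0.12; 95% interval -0.04 to 0.56), it had an edgeR adjusted p of 0.183. The tables list ptges3a only on the alternate locus KZ115691v1 of chromosome 23, at 291994 to 300054 on the plus strand, with 8 exons. Whether its reads also match the primary chromosome was not checked, so its counts may hold only part of its reads. Its level beside those of ptgs1 and ptges3b carries that limit.

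The measured members were ordered by their level per kilobase of deposited exon length. In the vector libraries the order, from the highest, was lta4h, alox5ap, alox5a, ptges3a, ptgs1, ptgs2b, pla2g4aa and ptgs2a, and no neighbours in that order overlapped. The level was 492 and 535 CPM per kilobase for lta4h, 399 and 408 for alox5ap and 158 and 181 for alox5a. It was 42.3 and 42.1 for ptges3a and 35.9 and 38.4 for ptgs1. Among all 15335 genes listed, lta4h ranked 185 and alox5ap 246 in vector, while ptgs2b ranked 3595 and pla2g4aa 5615. With the length of 1 copy, lta4h reached 985 to 1071 CPM per kilobase and the order of the measured members was the same. The rank of 185 uses the deposited length, which sums both copies, and may understate its place. Its rank among all genes with the length of 1 copy was not computed.

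In the miR-199 libraries, 2 pairs of neighbours overlapped. The gene lta4h, at 362 to 439 CPM per kilobase, was not separated from alox5ap, at 277 to 415, and ptges3a, at 48.7 to 53.6, was not separated from ptgs1, at 46.6 to 77.6. With the length of 1 copy lta4h was at 724 to 877 and clear of alox5ap.

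**Figure D2:**
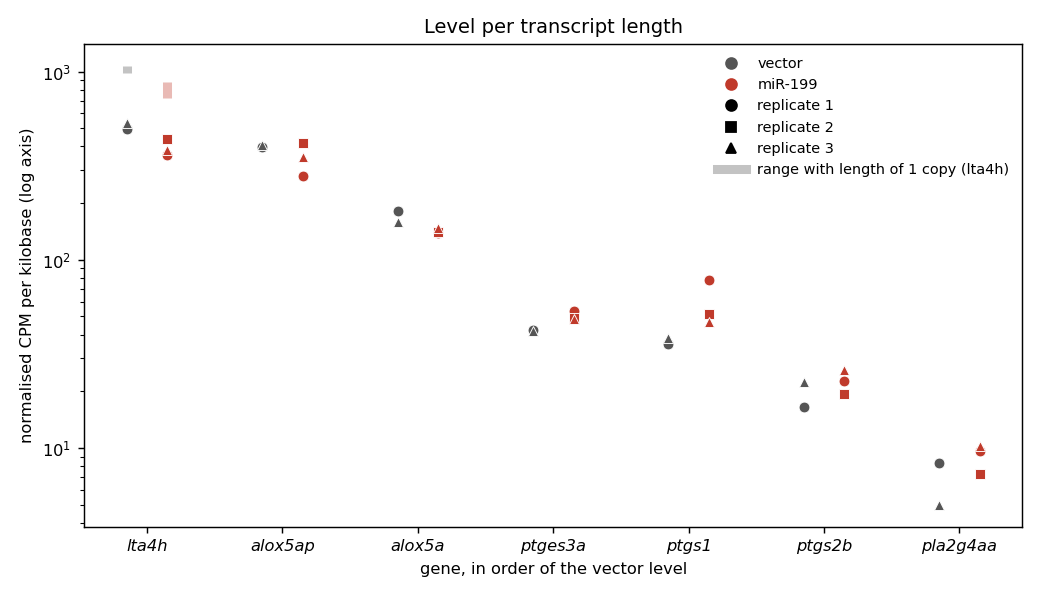
The level of the 7 tested genes in normalised CPM per kilobase (log axis) is plotted for each vector (grey) and miR-199 (red) library, with symbols for the replicate number. The 3 leukotriene genes stand at 139 or more in every library and the other 4 at 77.6 or less; the pale bars give the range for lta4h with the length of 1 copy.

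The genes whose pattern over the 5 libraries was most like that of lta4h, the member with the highest mean CPM, were ctsd, ndufb7 and ctnnbl1. Their root mean square distance from lta4h in centred log2(CPM + 0.5) was 0.026, 0.033 and 0.036. With 5 libraries and 8897 genes such close patterns are a description only.

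Other genes of the pathway were taken from a list of 76 symbols. Of these, 53 genes had a row, 5 of them found through synonyms in the reference gene table, 33 reached 10 counts and 29 were tested. The edgeR test called 7 of the 29, 3 higher and 4 lower, against 19.9% of all tested genes, of which 9.49% were called higher and 10.4% lower. Their median log2 fold change was 0.17, beside 0.019 over all tested genes. The list was chosen with earlier results of these data known. Its shares of calls, and those of its roles below, are thus a description from which no conclusion is drawn. The 7 calls were gpx4a, cbr1 and abcc4, which rose, and gpx4b, ptges3b, cotl1 and mboat7, which fell. DESeq2 called 12 of the 29, against 30.1% of all genes with an adjusted p. Without vector replicate 1 edgeR called 0 pathway genes and 0.0215% of all genes, with 9 pathway genes and 19.5% of all genes at an unadjusted p under 0.05. Without vector replicate 3 it called 0 pathway genes and 0 of all genes, with 7 pathway genes and 17.1% of all genes at an unadjusted p under 0.05. All 7 kept their sign in both.

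**Figure D3:**
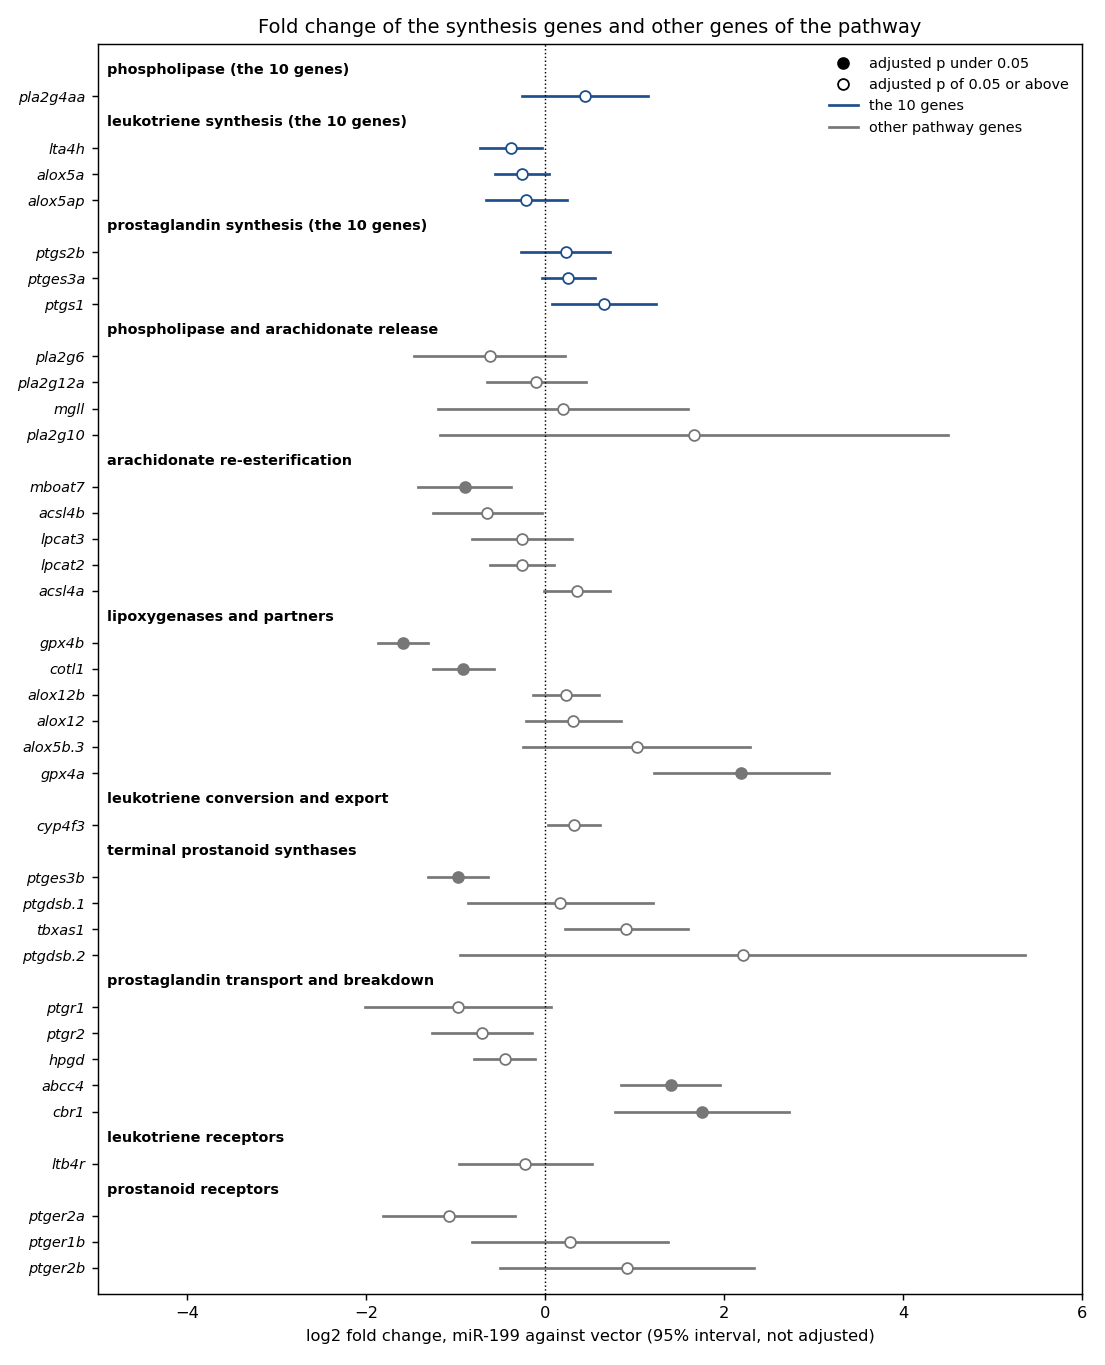
The log2 fold change of miR-199 against vector (horizontal axis) is shown with its unadjusted 95% interval for the 7 tested synthesis genes (blue) and 29 other pathway genes (grey), by role; filled points passed an adjusted p of 0.05. No blue point is filled, and the filled grey points run from -1.59 for gpx4b to 2.19 for gpx4a.

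Of 6 tested lipoxygenases and their partners, edgeR called 3, 1 higher and 2 lower, against 19.9% of all tested genes. The calls were cotl1, gpx4a and gpx4b, and none of them encodes a lipoxygenase. The lipoxygenase genes alox12, alox12b and alox5b.3 had log2 fold changes of 0.31, 0.23 and 1.02. Their edgeR adjusted p-values were 0.349, 0.316 and 0.209. The values for alox12b came from a row named zgc:152891, found through a synonym. Around 5-lipoxygenase, cotl1 (chromosome 18, 13203966 to 13216670, plus strand) fell in miR-199 neutrophils. It encodes coactosin-like protein, an actin-binding protein that in human cells also binds 5-lipoxygenase. Its level was 4697 and 4456 CPM in the vector libraries and 2214, 2411 and 2647 CPM in the miR-199 libraries, so the groups stood far apart. Its log2 fold change was -0.92 (SE 0.14) and its edgeR adjusted p 0.0125.

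The glutathione peroxidase 4 genes, whose products reduce lipid hydroperoxides, moved in opposite directions. The gene gpx4b (chromosome 2, 56642138 to 56655769, minus strand) fell from 302 and 292 CPM to 97.4, 93.9 and 104 CPM, a log2 fold change of -1.59 (SE 0.11) and an edgeR adjusted p of 0.0057. The gene gpx4a (chromosome 22, 17589608 to 17597002, minus strand) rose from 8.48 and 6.43 CPM to 48.9, 21.0 and 32.2 CPM, a log2 fold change of 2.19 (SE 0.40) and an edgeR adjusted p of 0.019. Per kilobase, gpx4a stayed below gpx4b in each library, at a ratio of 0.0239 and 0.0188 in vector and 0.428, 0.191 and 0.264 in miR-199 neutrophils.

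Of 4 further terminal prostanoid synthase genes tested, edgeR called 1, against 19.9% of all tested genes. This was ptges3b (chromosome 23, 6736116 to 6749820, minus strand), the duplicate of ptges3a, and it fell. It held 200 and 210 CPM in vector and 96.0, 118 and 98.0 CPM in miR-199 neutrophils, with a log2 fold change of -0.98 (SE 0.14) and an edgeR adjusted p of 0.0107. The difference between the duplicates was compared as their ratio within each library, which no scaling of the library can change. The ratio of ptges3a to ptges3b per kilobase was 0.210 and 0.199 in vector and 0.553, 0.412 and 0.493 in miR-199 neutrophils, a shift of 1.24 on the log2 scale. The groups did not overlap. A two-sided exact permutation test over libraries, which doubles the smaller tail, gave p = 0.2. With 3 libraries against 2 that is its smallest possible value. Any ratio whose groups do not overlap gives it, so the test could not decide whether the ratio differed.

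That ratio was 1 of 3 ratios of duplicates that were tested, all chosen after their values had been seen. The ratio of gpx4a to gpx4b shifted by 3.71 and that of acsl4a to acsl4b, long-chain acyl-CoA synthetases that prefer arachidonic acid, by 1.04 on the log2 scale. The groups did not overlap for either ratio, so the exact permutation p was again bound to be 0.2, also after adjustment over the 3. In each of the 3 pairs the groups already lay apart for both genes, in opposite directions. The separation of the ratios follows from that, and no conclusion is drawn from it or from the permutation p. Of the acsl4 pair alone, acsl4b had a log2 fold change of -0.65 with an edgeR adjusted p of 0.117, and acsl4a 0.36 with 0.149.

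**Figure D4:**
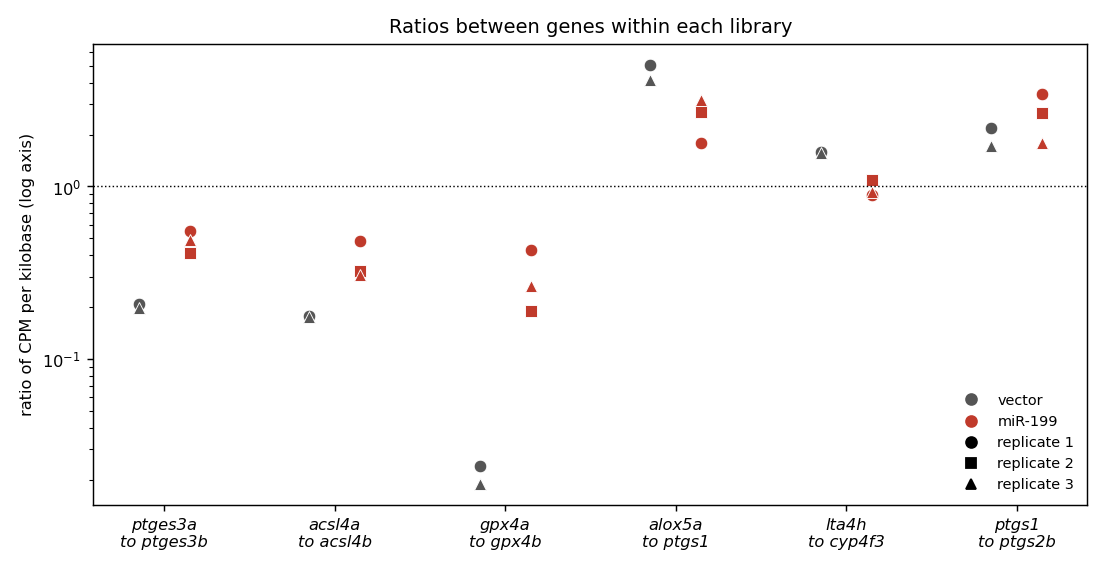
Ratios of normalised CPM per kilobase between the first and the second gene named are plotted on a log axis for each vector (grey) and miR-199 (red) library. The ratio of ptges3a to ptges3b is at most 0.210 in vector and at least 0.412 in miR-199 libraries, while that of ptgs1 to ptgs2b overlaps between the groups; the level of the lta4h ratio uses the deposited length of both copies.

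Among genes that return arachidonic acid to phospholipids, edgeR called 1 of 5 tested, against 19.9% of all tested genes. It was mboat7 (chromosome 16, 32014616 to 32025784, plus strand), a lysophospholipid acyltransferase that prefers arachidonic acid in mammals, which fell from 141 and 163 CPM to 101, 80.3 and 62.3 CPM, with an edgeR adjusted p of 0.0355 and a log2 fold change of -0.90 (SE 0.21). Its adjusted p was 0.0939 without miR-199 replicate 2. The most abundant of this group per kilobase, lpcat2, held 718 and 721 CPM against 626, 660 and 514 CPM, with an edgeR adjusted p of 0.255. Of 4 tested genes for arachidonic acid release, edgeR called 0 (19.9% of all tested genes), with 0 at an unadjusted p under 0.05 (36.9%). DESeq2, which called 30.1% of all genes, called 0 of these 4. Their most abundant member, pla2g12a, a secreted phospholipase gene, was at 15.5 and 15.1 CPM against 17.3, 13.2 and 12.4 CPM.

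Leukotriene B4 is inactivated in humans by the cytochrome P450 enzyme CYP4F3. The zebrafish gene cyp4f3 was abundant, with 531 and 580 CPM in vector and 688, 684 and 707 CPM in miR-199 neutrophils. All miR-199 libraries held more than both vector libraries, at a log2 fold change of 0.32 (SE 0.12). The adjusted p was 0.109 with edgeR and 0.0419 with DESeq2. The gene cyp4f3 was the only 1 of 9 listed leukotriene conversion and export genes to be tested. The reductase gene ptgr1, listed under prostaglandin breakdown, went the other way, at 26.8 and 26.9 CPM against 21.8, 7.61 and 11.4 CPM. Its log2 fold change was -0.98 (SE 0.43), with an edgeR adjusted p of 0.155. Like ptges3a it is listed only on an alternate locus, with the same limit. No conclusion on leukotriene B4 inactivation is drawn. The receptor gene ltb4r, through which leukotriene B4 attracts neutrophils, was the only 1 of 7 listed leukotriene receptor genes to be tested. It held 735 and 610 CPM in vector and 355, 638 and 733 CPM in miR-199 neutrophils. The groups overlapped, with miR-199 replicate 1 apart from the rest, and the edgeR adjusted p was 0.635, with an unadjusted p above 0.05 and no DESeq2 call.

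For prostaglandin transport and breakdown, edgeR called 2 of 5 tested genes, both higher. Over all tested genes 19.9% were called in either direction and 9.49% higher. DESeq2 called 4 of the 5, against 30.1% of all genes, and the 2 it added, hpgd and ptgr2, were lower. The median log2 fold change of the 5 was -0.45. The reductase gene ptgr2 held 15.5 and 15.7 CPM against 10.9, 7.84 and 9.80 CPM, with an adjusted p of 0.0771 with edgeR and 0.0394 with DESeq2. The gene abcc4 encodes a membrane exporter that carries prostaglandins in mammals, and rose from 10.4 and 8.48 CPM to 28.1, 25.6 and 21.2 CPM (log2 fold change 1.40, SE 0.23, edgeR adjusted p 0.0142). It is listed on chromosome 6 at 7322704 to 7391789 and on the alternate locus KZ115162v1 at 107755 to 176623, so its counts carry the same limit as those of lta4h. The gene cbr1 (chromosome 1, 47165842 to 47173177, plus strand) encodes a carbonyl reductase that in humans can reduce prostaglandins. It rose from 10.8 and 7.31 CPM to 45.4, 22.7 and 23.6 CPM (log2 fold change 1.75, SE 0.40, edgeR adjusted p 0.032), and its adjusted p was 0.0555 without miR-199 replicate 2. The most abundant of the group, hpgd, which encodes the dehydrogenase that begins prostaglandin breakdown, was at 340 and 392 CPM against 243, 265 and 294 CPM, with an adjusted p of 0.0682 with edgeR and 0.0244 with DESeq2.

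Thromboxane synthase, encoded by tbxas1, uses the product of cyclooxygenases and was looked at after its values had been seen. It held 36.9 and 40.3 CPM in vector and 98.9, 52.3 and 65.7 CPM in miR-199 neutrophils. At a log2 fold change of 0.91 (SE 0.28), the adjusted p was 0.0717 with edgeR and 0.0149 with DESeq2. As for ptgs1, the highest value was that of miR-199 replicate 1. Of the 3 tested prostanoid receptor genes edgeR called 0, and 1, ptger2a, had an unadjusted p under 0.05 and was called by DESeq2. The shares over all genes were 19.9%, 36.9% and 30.1%, in that order. The level of ptger2a was 40.1 and 44.3 CPM in vector against 21.1, 26.3 and 12.8 CPM, with an edgeR adjusted p of 0.0557. The groups overlapped for ptger1b, at 28.5 and 19.0 CPM against 13.8, 35.1 and 37.5 CPM. Per kilobase ptger1b had the highest mean of the 3 over all 5 libraries, but in the vector libraries the mean of ptger2a was higher.

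The ratio of alox5a to ptgs1, the entry enzymes of the leukotriene and prostaglandin branches, was 5.06 and 4.12 per kilobase in the vector libraries and 1.79, 2.71 and 3.16 in the miR-199 libraries. It was lower in every miR-199 library and was chosen after its values had been seen, so it was not tested. The groups already lay apart for alox5a, which was lower, and for ptgs1, which was higher. The separation of their ratio follows from that and is no further result. The ratio of ptgs1 to ptgs2b was 2.18 and 1.71 in vector and 3.42, 2.67 and 1.78 in miR-199 neutrophils, so the groups overlapped.

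Markers of other cell types were mostly low. The 9 macrophage markers with a row summed to 2066 and 2229 CPM in vector and 613 to 893 CPM in miR-199 libraries. Nearly all of this came from ctss2.1 and spi1a, which fell and which neutrophils may also express. The genes mpeg1.1, c1qa, c1qb and c1qc were at 0 and are listed in 2 places. The remaining markers were near the floor, with 13 and 6 counts of mfap4 in vector and 19, 6 and 0 in miR-199 libraries. The counts of ccl34a.4 were 3 and 2 in vector against 15, 8 and 2, and csf1ra had 7 counts in all. Of the 3 macrophage markers tested, edgeR called 2, both lower, against 10.4% of all tested genes called lower. These were ctss2.1, at a log2 fold change of -0.55 and an edgeR adjusted p of 0.0312, and spi1a, at -2.29 and 0.0117. Keratinocyte markers, led by agr1, summed to 23.4 and 19.6 CPM in vector and 7.17 to 24.2 CPM in miR-199 libraries, with 5 of 12 at 0, 2 of these listed in 2 places. Of the 3 keratinocyte markers tested, edgeR called 1, krt91, which was lower, against 10.4% of all tested genes called lower. It fell from 8.90 and 7.09 CPM to 1.64, 1.02 and 0.811 CPM, with a log2 fold change of -2.77 and an edgeR adjusted p of 0.0121. Erythroid markers, led by slc4a1a, summed to 4.90 and 4.61 CPM against 6.63 to 20.2 CPM, with 4 of 8 at 0, 2 of these listed in 2 places.

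Muscle markers, led by actc1b, summed to 7.08 and 8.41 CPM against 4.93 to 23.4 CPM, with 3 of 6 at 0, 2 of these listed in 2 places. Endothelial markers summed to 8.72 and 4.97 CPM against 51.1 to 119 CPM, with flt1 and plvapb at 0 and listed in 2 places, so that their 0 says nothing of their expression. Most of the sum was tie1, the only endothelial marker tested. It was called and rose from 6.42 and 4.83 CPM to 119, 86.7 and 50.8 CPM (log2 fold change 3.92, edgeR adjusted p 0.0068). Over all tested genes 9.49% were called higher. The counts of kdrl were 34 and 0 in vector and 1, 4 and 4 in miR-199 libraries, and cdh5 had at most 7 counts in a library. The part of these cells in the values of the synthesis genes was not tested.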

How the data were processed

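Messenger RNA of 5 sorted neutrophil libraries was analysed, and the 5 small RNA libraries were not used here. The authors deposited raw counts for each gene symbol, and the file headers have the layout of featureCounts, with exon coordinates and a length in bases (another unit, used as deposited). STAR 2.5, featureCounts of Subread 1.5.1 and the build GRCz11 are named in the submitters' processing notes. Whether strand was used, and how a read that maps to several places was counted, is not given in the sources used here.

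Counts were tested with edgeR 4.0.16 in R 4.3.3 (TMM, filterByExpr by group, glmQLFit and glmQLFTest, two-sided), with Benjamini-Hochberg adjustment over 8897 genes and calls at an adjusted p under 0.05. Standard errors were taken as fold change over the root of the F statistic, and 95% intervals use the degrees of freedom of the test. The procedure was also run on simulated counts with the same spread in both groups, which cannot show how it behaves when the spread differs. DESeq2 1.42.0, other scalings, no filter, each library left out and a replicate block were alternatives. The vector pair differed by 14.5 in chi-square per degree of freedom and the miR-199 pairs by 53.6 to 114, so none agreed within sampling noise. The vector libraries were thus closer to each other than the miR-199 libraries, whereas the edgeR test assumes the same spread in both groups for each gene. Tables and figures used Python 3.11.15, pandas 2.3.3, scipy 1.17.1 and matplotlib 3.10.9.

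The members and lists were chosen with earlier results of these data known. The text names all 10 members, called pathway genes, the most abundant gene of each pathway role, the leading gene of marker lists and the 3 genes nearest in pattern to lta4h; others were chosen after their values were seen. No table of sequences was used here.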

Additional observations from a re-analysis of the deposited data

How the results depend on the processing

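Under the 11 alternatives run, each of the 7 tested synthesis genes kept the sign of its fold change, and none was called under 10 of them; DESeq2 called 1, ptgs1, with a log2 fold change of 0.66 and an adjusted p of 0.0492. Leaving out 1 library in turn called 0 synthesis genes, 0 to 10 pathway genes and 0 to 2195 of all genes, and without miR-199 replicate 2 the last count was 926. DESeq2 called 2673 genes in all and 12 pathway genes. The edgeR adjusted p ranged from 0.0545 to 0.400 for ptgs1 and from 0.101 to 0.510 for lta4h over the libraries left out. Library totals in place of TMM moved the median of all genes by 0.13 on the log2 scale and took mboat7 to an adjusted p of 0.0527. The order of levels was the same with library totals and, an alternative added after seeing the data, with the length of 1 copy.

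The labels give both groups replicate numbers 1 and 3 but do not say that a number marks a shared clutch or day. For that reason the numbers were not taken as pairs. Same-numbered libraries deviated from their group means with correlations of -0.21 and -0.17. With 2 vector libraries the deviations of the vector group mirror each other, so these correlations cannot decide on pairing. With a replicate block on these 4 libraries, 98 genes, 0 pathway genes and 0 synthesis genes were called. The 7 pathway calls were lost under the block and without either vector library, where the lone vector library is assumed to vary like the miR-199 group. With 3 against 2 libraries, the 95% intervals of the 7 synthesis genes were 0.60 to 1.41 wide on the log2 scale.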
